A study of Mus musculus with 4 samples.

Results

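The small nucleolar RNA host genes are transcribed genes whose introns carry small nucleolar RNAs (snoRNAs). They were chosen by symbol, as 10 names (Snhg1, Snhg3, Snhg4, Snhg5, Snhg6, Snhg8, Snhg12, Snhg15, Snhg17 and Gas5), because Snhg1 and Snhg17 had been seen to be higher in the Yap knockout. 9 of the 10 matched a gene identifier among the 52636 of the deposited table, through the GENCODE M21 annotation of mm10. Snhg4 had no match and was not analysed here. Since the comparison of knockout with control chose the set, the values of the 9 genes in that comparison are described and carry no p-value.

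The samples were whole lungs of C57BL/6 mice, taken at embryonic day 14.5, when the airways are still branching. There were 2 libraries labelled control, of wild-type genotype, and 2 labelled Yap CKO, a conditional knockout of Yap that the series title places in the epithelium. Neither the Cre driver nor the deleted exons are named in the labels. Whole lung mixes the epithelium with mesenchyme, vessels and blood, so fewer cells of a type and less RNA per cell cannot be told apart. The labels do not say whether the libraries came from separate embryos, and a p-value here reflects the spread among these libraries. Controls 1 and 2 differed in sex (values below), so the spread between them was not technical alone. Yap CKO 1 and 2 differed in summed heart muscle genes (11634 and 2149), and what the spread between them reflects was not tested.

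A snoRNA pairs with a precursor of ribosomal or spliceosomal RNA and directs a protein complex to modify it. C/D box snoRNAs guide methylation of the ribose, with the protein fibrillarin, and H/ACA box snoRNAs guide the change of uridine to pseudouridine, with dyskerin. In mammals most snoRNAs are released from introns when the host transcript is spliced. The spliced exons of Gas5 and the Snhg genes have no long reading frame. Many of them begin with a terminal oligopyrimidine (TOP) tract, as the messengers of ribosomal proteins do, and several are removed from the cytoplasm by nonsense-mediated decay once ribosomes load on them.

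The 9 genes differed in what they host. In GENCODE M21 they enclosed 33 annotated snoRNA genes, namely 10 in Gas5, 8 in Snhg1, 5 in Snhg12, 3 in Snhg17, 2 each in Snhg3 and Snhg5, and 1 each in Snhg6, Snhg8 and Snhg15. The entries for Snord80 in Gas5 and for Snora16a in Snhg12 are each annotated as a pair of overlapping genes. All 33 lay in introns of the transcript with the most exons of their host. That transcript had 12 exons joined to 502 bases in Gas5, 10 exons and 605 bases in Snhg1, and 7 exons and 1046 bases in Snhg17.

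**Figure D1:**
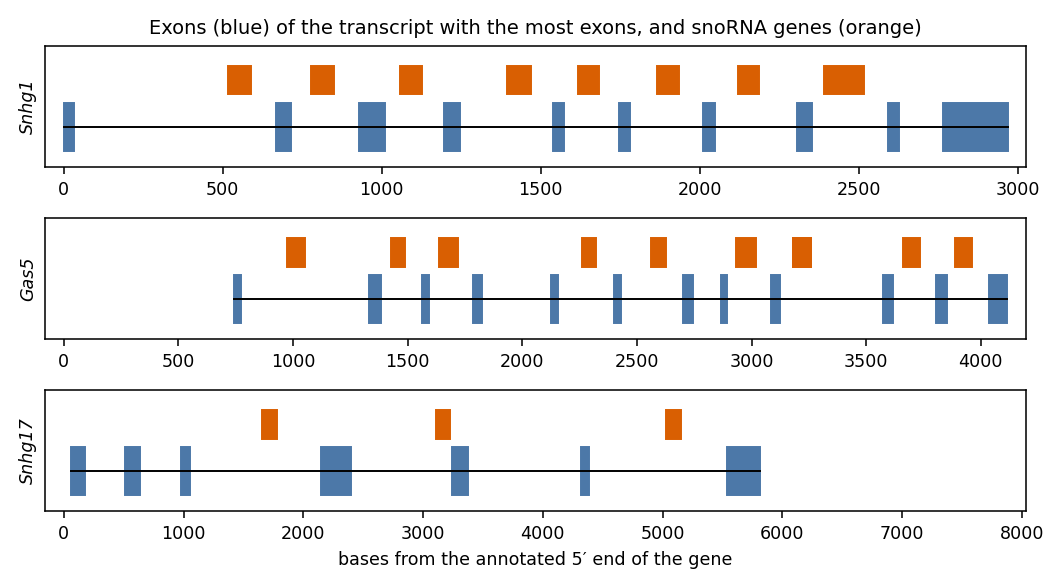
Exons of the transcript with the most exons (blue boxes, black line for introns) and annotated snoRNA genes (orange boxes) of Snhg1, Gas5 and Snhg17, by distance in bases from the annotated 5′ end of each gene. The snoRNA genes, 8 in Snhg1, 10 in Gas5 (of which the pair for Snord80 overlaps) and 3 in Snhg17, lie between blue boxes.

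The 8 snoRNA sequences of Snhg1, one of the genes that prompted the choice, show its cargo to be of the C/D kind. They were read from the GENCODE M21 transcripts (mm10), 5′ to 3′. Capitals mark the letters TGATGA where they stood within the first 21 bases, as in the core of box C, and the last CTGA within the final 15 bases, the letters of box D. All 8 held CTGA there and 5 held TGATGA.
Gm25855, chr19:8723993-8724064, plus strand: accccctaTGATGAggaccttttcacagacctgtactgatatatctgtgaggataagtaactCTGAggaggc
Gm25894, chr19:8724251-8724325, plus strand: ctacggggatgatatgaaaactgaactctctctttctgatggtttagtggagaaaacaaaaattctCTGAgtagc
Gm24452, chr19:8724531-8724602, plus strand: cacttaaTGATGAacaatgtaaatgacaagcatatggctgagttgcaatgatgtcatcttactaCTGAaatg
Gm24453, chr19:8724868-8724943, plus strand: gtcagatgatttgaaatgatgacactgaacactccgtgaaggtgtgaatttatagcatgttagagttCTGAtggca
Gm22744, chr19:8725092-8725156, plus strand: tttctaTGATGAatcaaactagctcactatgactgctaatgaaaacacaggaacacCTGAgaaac
Gm22680, chr19:8725341-8725409, plus strand: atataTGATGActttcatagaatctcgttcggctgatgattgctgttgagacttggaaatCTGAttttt
Gm23246, chr19:8725594-8725660, plus strand: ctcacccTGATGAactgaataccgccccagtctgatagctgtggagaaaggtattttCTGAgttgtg
Snord22, chr19:8725866-8725991, plus strand: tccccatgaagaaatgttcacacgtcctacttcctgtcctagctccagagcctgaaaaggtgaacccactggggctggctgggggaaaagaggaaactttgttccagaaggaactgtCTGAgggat

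Gas5 hosted the same kind. All of its 10 snoRNA entries, of 60 to 84 bases, held CTGA near the 3′ end and 8 held TGATGA. The 3 with a Snord symbol are shown, with capitals as above, and the longer entry is given for Snord80.
Snord78, chr1:161036984-161037049, plus strand: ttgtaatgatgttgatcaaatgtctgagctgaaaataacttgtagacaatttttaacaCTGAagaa
Snord80, chr1:161037601-161037681, plus strand: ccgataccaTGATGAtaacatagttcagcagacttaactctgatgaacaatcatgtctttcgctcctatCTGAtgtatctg
Snord47, chr1:161038082-161038158, plus strand: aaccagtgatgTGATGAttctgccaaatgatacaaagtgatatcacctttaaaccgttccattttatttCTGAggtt

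Snhg17 carried the other class. None of its 3 snoRNA genes, of 113 to 132 bases, had CTGA within the last 15 bases, and all had ACA within the last 8, in capitals here. Gm23925 and Gm24411 were identical at 124 of 132 aligned positions, and Gm26003 matched them at 69.7% and 70.2%.
Gm23925, chr2:158359798-158359929, minus strand: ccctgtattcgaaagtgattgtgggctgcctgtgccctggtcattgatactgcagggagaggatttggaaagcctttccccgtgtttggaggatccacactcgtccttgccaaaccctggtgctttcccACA
Gm26003, chr2:158358360-158358472, minus strand: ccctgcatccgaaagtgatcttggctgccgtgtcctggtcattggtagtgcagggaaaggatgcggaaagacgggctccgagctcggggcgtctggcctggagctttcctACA
Gm24411, chr2:158356424-158356554, minus strand: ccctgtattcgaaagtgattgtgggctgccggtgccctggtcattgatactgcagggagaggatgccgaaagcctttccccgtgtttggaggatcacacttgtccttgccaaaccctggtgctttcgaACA

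Over all 33, the 22 with CTGA near the 3′ end were 60 to 126 bases long. The other 11 were 113 to 205 bases long, and 10 of them held ACA within the last 8 bases. By this split Gas5, Snhg1, Snhg5 and Snhg6 held C/D sequences only, while Snhg3, Snhg8, Snhg15 and Snhg17 held none. Snhg12 held 1 with CTGA (Snord99) and 4 without. Snhg5 carries a pair of near copies, identical at 71 of 72 positions, which short reads can hardly tell apart.
Snord50b, chr9:88521797-88521868, minus strand: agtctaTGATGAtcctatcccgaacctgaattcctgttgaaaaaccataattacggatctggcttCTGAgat
Snord50a, chr9:88521529-88521600, minus strand: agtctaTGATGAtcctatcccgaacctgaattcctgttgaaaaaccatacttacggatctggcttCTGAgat

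The snoRNAs themselves were almost invisible in these libraries. 32 of the 33 had 0 reads in all 4 libraries, which allows up to 3 reads in each. The same held for 1208 of all 1507 annotated snoRNA genes in the table. In the annotation 30 of the 33 lay wholly, and 1 partly, inside an exon of some other transcript of their host, such as one with a retained intron. Reads on bases shared by 2 genes are often left uncounted, and the authors' treatment of them is not stated in the labels. Across the table, 14 of 152 snoRNA genes touched by a host exon had any read, against 175 of 504 within a host but touched by none.

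Only 2 of the 33 were touched by no exon of their host. Snora73b in Snhg3 was 1 of them and had 0 reads, like the rest. Snord87 in Snhg6 was the other, and the only one of the 33 with reads, 112 in all (a normalized count is the reads counted to a gene divided by 1 factor per library).
Snord87, chr1:9942463-9942549, minus strand: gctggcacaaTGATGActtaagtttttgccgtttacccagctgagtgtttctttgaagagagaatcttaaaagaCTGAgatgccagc
Controls 1 and 2 had normalized counts of 17.4 and 24.6 for it, against 21.2 and 47.5 for Yap CKO 1 and 2. The groups overlapped, and the log2 difference of 0.59 ± 0.46 (SE) did not pass (limma, adjusted p = 0.545). It was 1.161 without Yap CKO 1 and 0.029 without Yap CKO 2.

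Values per library are normalized counts throughout, and SE is the standard error from limma. Depth was 17756301 to 21333878 reads counted to genes. The libraries differed in sex and in the RNA of genes typical of other tissues, and whether those tissues were present was not tested. Xist, the RNA of the inactive X chromosome, was at 42.6 in control 1 and at 42729 or more in the others. The 15 heart muscle genes listed summed to 1840 and 52256 in controls 1 and 2 and to 11634 and 2149 in Yap CKO 1 and 2. The 9 neuron and glia genes summed to 368 and 840 against 1010 and 838, and the 6 foregut and gut genes to 18.4 and 17.5 against 410 and 289, with 2 of the 6 at 0 in each control. All 8 lung epithelium and all 8 lung mesenchyme markers had reads in every library. The epithelium markers had a median log2 difference of -0.25, with 1 above both controls in both knockouts and 4 below, and the mesenchyme markers a median of 0.013, with 4 above and 3 below. In limma 1 of each 8 rose and none fell (Sftpc and Fgf10, named after their values were seen). DESeq2 called 2 of each 8 lower, and 1 epithelium and 2 mesenchyme markers higher (Pdgfra added). The part of these differences in the values below was not tested. Yap1 itself stood at 5686 and 3467 in the controls against 3209 and 4483. These overlap (log2 difference -0.23, limma, adjusted p = 0.683; 0.13 without control 1), so Yap1 does not check the labels.

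All 9 host genes were higher in both libraries labelled Yap CKO than in both controls. The ratio of the group means ran from 1.21 for Snhg5 to 1.73 for Gas5, with a median log2 change of 0.45 against -0.005 over the 19472 genes tested. Of those genes 25.2% had both Yap CKO libraries above both controls and 25.6% had both below, shares given beside the 9 of 9 as background only.

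Gas5, which hosts C/D snoRNAs and is named for its rise in growth-arrested cells, lies at chr1:161034422-161038539 on the plus strand (ENSMUSG00000053332). Controls 1 and 2 had normalized counts of 2080 and 2065, against 3454 and 3731 for Yap CKO 1 and 2. The controls were close together, and both knockouts lay well above them. The log2 change was 0.79 ± 0.09 (SE).

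Snhg1, the host of 8 C/D snoRNAs, lies at chr19:8723475-8726443 on the plus strand (ENSMUSG00000108414). It stood at 1259 and 1351 in the controls against 1955 and 2295 in the knockouts. The groups did not overlap, and Yap CKO 2 was at 117% of Yap CKO 1. The log2 change was 0.70 ± 0.11.

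Snhg17, with its H/ACA cargo, lies at chr2:158353700-158361580 on the minus strand (ENSMUSG00000085385). Controls 1 and 2 held 1436 and 1290 normalized counts of it, and the knockouts 2019 and 2000. Here control 1 was the higher control and the knockouts were close together. The log2 change was 0.56 ± 0.10. Gas5, Snhg1 and Snhg17 were the 3 of 9 that passed limma's adjusted threshold of 0.05 as higher, where 1.19% of all genes tested did. None passed as lower (1.15% of genes; 2.33% in either direction). On recovered reads edgeR called 3 host genes higher (1.05% of genes) and DESeq2 called 4 (2.26%), the fourth being Snhg6. As Snhg1 and Snhg17 prompted the choice, nothing is read from this count. Leaving out Yap CKO 1 gave 0.85, 0.82 and 0.56 for Gas5, Snhg1 and Snhg17, and leaving out Yap CKO 2 gave 0.74, 0.58 and 0.57. In those fits the knockouts have no spread of their own, so no call is read from them for these genes. Snhg17 did not pass with the replicate block.

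Snhg6, the host of Snord87, (chr1:9941959-9944118, minus strand) stood at 423 and 439 in controls against 604 and 640, a log2 change of 0.53 ± 0.11. Snhg15, which hosts Snora9 (chr11:6525591-6528760, minus strand), stood at 172 and 185 against 238 and 250 (0.45 ± 0.15). Snhg12, host of Snord99 and of the Snora16a, Snora44 and Snora61 genes (chr4:132308623-132311024, plus strand), stood at 446 and 435 against 542 and 578 (0.35 ± 0.11). In each of these genes the controls were close and both knockouts lay above them.

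Snhg8, the host of Snora24 (chr3:123507552-123508404, minus strand), had 265 and 219 in controls against 293 and 305 (0.31 ± 0.15; 0.18 without control 2 and 0.45 without control 1). Its controls differed most among the 9 genes, and its groups did not overlap. Snhg5, which hosts Snord50a and Snord50b (chr9:88521050-88522929, minus strand), had 1024 and 1026 against 1180 and 1309 (0.28 ± 0.10), the smallest change of the set. Of all genes tested 19.1% had a larger log2 change than Snhg5.

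Snhg3, whose introns hold Snora73a and Snora73b (chr4:132348014-132353686, minus strand), was counted far below the others, with 12.6 and 11.7 in controls against 15.4 and 16.8. These are 57 reads over 4 libraries, and the standard error of its log2 change (0.38 ± 0.39) exceeded the change. Of its 986 exon bases 83.3% are shared with exons of other genes, Gm17300 on the opposite strand and Rcc1 on the same strand. The same share was 11.1% for Snhg6, 1.87% for Snhg17 and 0% for the other 6. Its low count is therefore not read as low expression.

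**Figure D2:**
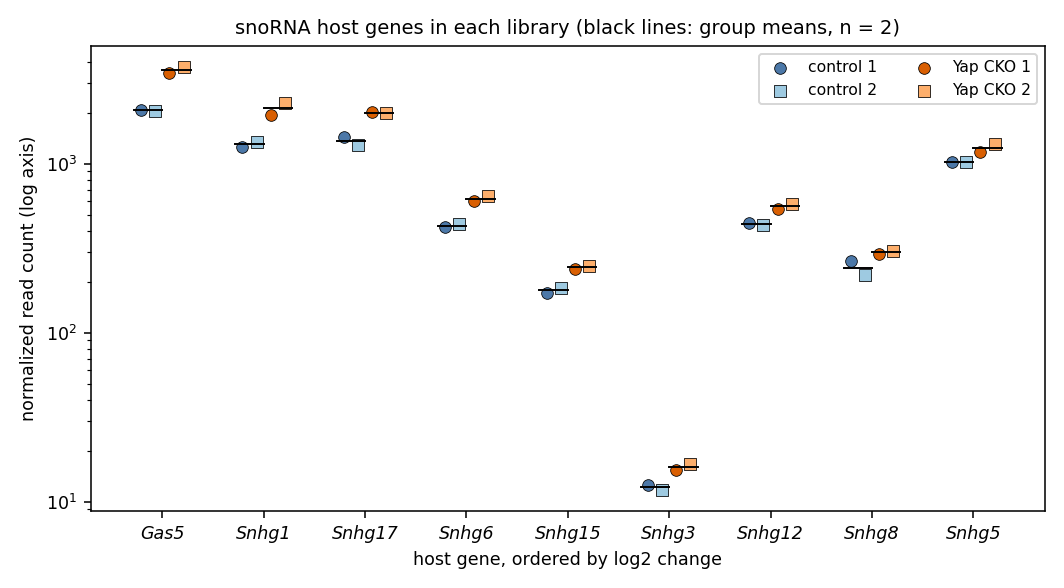
Normalized read counts (log axis) of the 9 host genes, 1 point per library, ordered by log2 change, with black lines at the group means (n = 2 per group). Both Yap CKO points lie above both control points for each gene, widest for Gas5 (2080 and 2065 against 3454 and 3731).

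Replicates of these genes were close. For the 8 host genes with a mean between 100 and 4000, the median absolute log2 difference was 0.078 between the controls and 0.088 between the knockouts. Over the 12802 genes of that range it was 0.16 and 0.11. Control 2, the library richest in heart muscle transcripts, held the 9 genes at 82.7% (Snhg8) to 108% (Snhg15) of their level in control 1. Control 1, the only library with low Xist, was thus close to control 2 for most of them. Yap CKO 2 was above Yap CKO 1 for 8 of the 9, all but Snhg17, where 50.1% of the genes tested were higher in Yap CKO 2.

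Levels of different genes were compared per kilobase of merged exon length. In controls Snhg5 was highest (592 ± 0.52, SD, n = 2), followed by Gas5 (551 ± 2.71), Snhg1 (439 ± 21.9), Snhg6 (376 ± 9.88) and Snhg8 (283 ± 38.0). Snhg17 (193 ± 14.7) and Snhg12 (183 ± 3.16) overlapped, and Snhg15 (131 ± 6.89) and Snhg3 (12.3 ± 0.65) came last. In Yap CKO Gas5 led at 956 normalized counts per kilobase, and Snhg5 (719) and Snhg1 (716) overlapped. The order depends on the length used. Per kilobase of the spliced transcript with the most exons, Gas5 stood at 4128, Snhg1 at 2157, Snhg5 at 1312 and Snhg17 at 1303 in controls.

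The promoters of the set were examined as members that moved together. RefSeq (GRCm38.p6, the assembly of mm10) gave 10 start windows for 8 of the 9 genes, each of 250 bases before to 50 after the start, and no entry for Snhg6. A run of at least 6 letters that were all C or T, on the sense strand within 20 bases of the start, was found in 7 of 10 windows, of 6 genes, against 37.5% of all 32851 windows. The letters TATA, between 45 and 16 bases before the start, were found in 5 of 10 windows, of 5 genes (Gas5, Snhg1, Snhg5, Snhg8 and Snhg12), against 6.72% of all windows. Stretches of 95 bases are shown for the 6 genes with a run, from 45 bases before the start, with the run and TATA in capitals. The later of the 2 starts of Gas5 and of Snhg17 is shown.
Gas5, chr1:161035121-161035215, plus strand: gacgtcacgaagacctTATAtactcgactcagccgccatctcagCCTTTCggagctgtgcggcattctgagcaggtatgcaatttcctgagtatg
Snhg1, chr19:8723442-8723536, plus strand: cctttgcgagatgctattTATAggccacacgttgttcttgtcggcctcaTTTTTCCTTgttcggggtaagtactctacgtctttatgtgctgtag
Snhg17, chr2:158361460-158361554, minus strand: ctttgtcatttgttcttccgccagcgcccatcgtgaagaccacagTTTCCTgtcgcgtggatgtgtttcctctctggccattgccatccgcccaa
Snhg12, chr4:132308633-132308727, plus strand: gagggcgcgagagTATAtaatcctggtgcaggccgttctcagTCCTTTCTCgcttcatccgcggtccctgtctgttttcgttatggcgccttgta
Snhg8, chr3:123508287-123508381, minus strand: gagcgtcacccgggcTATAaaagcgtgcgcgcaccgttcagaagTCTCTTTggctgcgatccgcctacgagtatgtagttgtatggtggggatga
Snhg5, chr9:88522848-88522942, minus strand: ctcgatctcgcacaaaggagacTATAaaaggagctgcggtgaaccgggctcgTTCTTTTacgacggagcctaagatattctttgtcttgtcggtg

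In Gas5 and Snhg8 the run began 1 base before the annotated start, and in Snhg17 at the start itself, where a TOP tract would stand. The starts not shown differed. That of Gas5 had no run longer than 3 and no TATA, and that of Snhg17 had its run 20 bases upstream. In Snhg12 it began 3 bases before, and in Snhg1 and Snhg5 it began 4 and 7 bases after the start. Snhg3 and Snhg15 had no run of 6. The E-box letters CACGTG, a site of MYC proteins, were in 1 of 10 windows (Snhg15) against 7.15% of all windows. The letters GGAATG on either strand, the core of the site of TEAD factors through which YAP acts on DNA, were in 2 (Snhg5 and Snhg8) against 14.7%. These matches describe letters, and binding was not measured.

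Of 5 genes tested beside the host genes none passed in limma (2 at an unadjusted p under 0.05) or edgeR, and DESeq2 called 1 lower, Zbtb37. Over all genes tested, 18.9% had an unadjusted p under 0.05 in limma, and 2.07% were called in either direction by edgeR and 5.33% by DESeq2, shares that bear on each such count in the text. Zbtb37, a zinc finger gene that starts 427 bases from the annotated 5′ end of Gas5 and runs the other way, stood at 1302 and 1200 in controls against 794 and 983. It was lower in both knockouts (log2 difference -0.50 ± 0.13, limma, adjusted p = 0.112), on the opposite side of 0 from Gas5. Without control 2 the difference of Zbtb37 was -0.56. Besides DESeq2, Zbtb37 passed in limma with the crossed replicate numbers. That alternative was chosen after seeing the data and called more genes in all than the main fit. Slc3a2, which encodes the heavy chain of an amino acid transporter and starts 106 bases from Snhg1, stood at 1367 and 1096 against 1120 and 1146. Its groups overlapped (-0.11 ± 0.13, limma, adjusted p = 0.691; 0.05 without control 1).

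Rcc1, the exchange factor of the GTPase Ran, starts 81 bases from Snhg3 on the same strand and was at 1866 and 2049 against 1776 and 1799 (-0.13 ± 0.09, limma, adjusted p = 0.515). Gm17300, a noncoding gene opposite Snhg3 that shares 705 exon bases with it, was at 108 and 133 against 166 and 165 (0.46 ± 0.19, limma, adjusted p = 0.253). Without a stated strand setting, reads of Snhg3 and Gm17300 cannot be told apart. Mcmdc2, which overlaps the end of Snhg6 by 127 exon bases, was at 20.4 and 30.4 against 36.5 and 22.4 (0.19 ± 0.39, limma, adjusted p = 0.832; -0.08 without control 1 and -0.15 without Yap CKO 1). The difference between each host and its neighbour was not tested, as the host values chose the set.

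**Figure D3:**
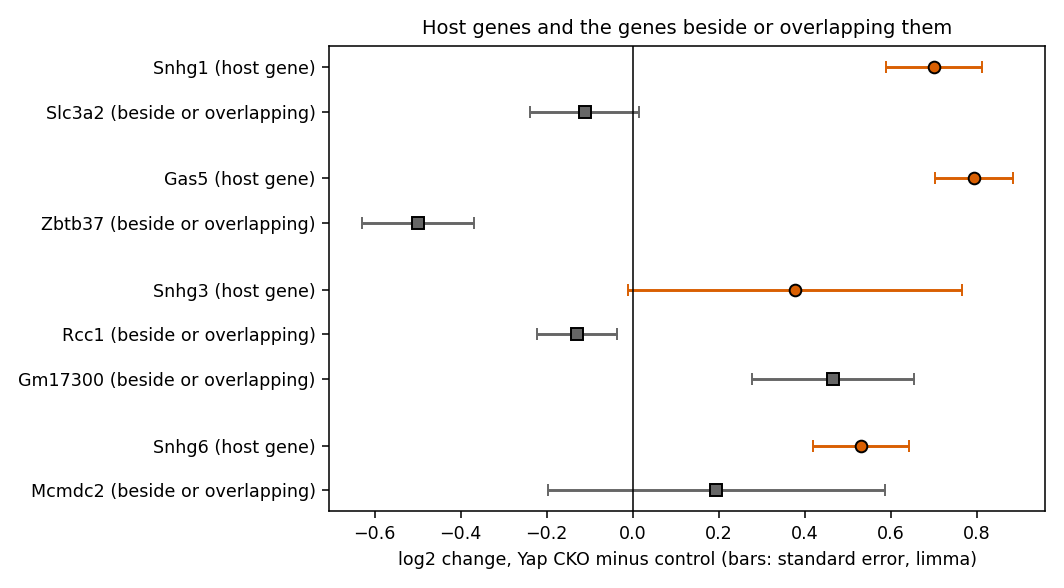
Difference of log2 means, knockouts less controls, on the horizontal axis, with bars of 1 standard error from limma, of 4 host genes (orange circles) and of the genes beside or overlapping them (grey squares). Snhg1 (0.70) and Gas5 (0.79) lie right of 0, while Slc3a2 (-0.11) and Zbtb37 (-0.50) lie left of it.

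Other hosts listed by symbol, not all of them noncoding, had values on both sides of 0. Of 15 further names listed as hosts of snoRNAs or related RNAs, 14 matched (Snhg16 through its older symbol 1810032O08Rik) and 13 were tested. 3 rose, none fell and 10 did not pass, with a median of 0.50, and DESeq2 called 5 higher, Rian and Snhg11 being added. Meg3, an imprinted noncoding RNA, rose from 13262 and 11493 to 25989 and 20701 (0.91 ± 0.14, limma, adjusted p = 0.0352). Meg3 was not among the noncoding hosts found by position below. Taf1d, a protein-coding gene for a subunit of the RNA polymerase I factor SL1 that also hosts snoRNAs, rose from 1266 and 1173 to 1964 and 2133 (0.75 ± 0.10, limma, adjusted p = 0.0213). Zfas1, a noncoding host of C/D snoRNAs, rose from 1055 and 941 to 1598 and 1523 (0.65 ± 0.10, limma, adjusted p = 0.0352). No call is read from fits that leave out a knockout library. Over all alternatives run the log2 change stayed between 0.69 and 0.81 for Taf1d, 0.75 and 1.07 for Meg3 and 0.56 and 0.73 for Zfas1.

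The remaining names are given after their values were seen. Snhg11 (0.92 ± 0.18, limma, adjusted p = 0.0557), known from neurons, stood at 102 and 95.9 against 197 and 179. Rian, an imprinted host of many C/D snoRNAs (0.70, adjusted p = 0.068 by limma), Snhg16 (0.70, 0.0791), Mir17hg (0.50, 0.127), Snhg10 (0.46, 0.481), Epb41l4aos (0.20, 0.575) and Snhg20 (0.18, 0.588) had positive values. Snhg18 (-0.38, 0.234), Snhg14 (-0.23, 0.663; 0.13 without control 1) and Dancr (-0.17, 0.859; 0.16 without Yap CKO 2) had negative ones. Snhg9, below the filter, had 2.91 and 2.34 in controls and 0 in both knockouts. Snhg11 was higher in the libraries labelled Yap CKO. The 9 neuron and glia markers summed to 368 and 840 in controls 1 and 2 and to 1010 and 838 in Yap CKO 1 and 2. Their part in these values was not tested.

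Hosts found by position gave a wider view. 317 genes of the table enclosed an annotated snoRNA on the same strand, 257 of them protein-coding. Apart from the 9, 51 noncoding hosts were found, of which 25 were tested. Of these 1 rose (Zfas1), none fell and 24 did not pass, with a median log2 change of 0.087 and 17 above 0, and DESeq2 called 2 higher (Rian and Zfas1). Both Yap CKO libraries lay above both controls in 11 of the 25 and below in 3 (25.2% and 25.6% of all genes tested). In limma 10 of the 25 had an unadjusted p under 0.05, against 18.9% of all genes tested. The 9 Snhg genes were picked by name and with results in view, so no test was made between the groups.

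Among the 29 ribosomal protein genes that host snoRNAs, 1 rose and 28 did not pass, with a median of 0.16 and 22 above 0, and DESeq2 called 3 higher (Rpl5 and Rpl30 added). Both Yap CKO libraries lay above both controls in 14 of the 29 and below in 1 (25.2% and 25.6% of all genes tested). In limma 7 had an unadjusted p under 0.05 (18.9% of all genes tested). The riser was Rps12, of the small ribosomal subunit, from 292 and 354 to 578 and 596 (0.87 ± 0.14, limma, adjusted p = 0.0355; 0.73 to 1.01 over the alternatives). Of 200 other protein-coding hosts tested 5 rose, 1 fell and 194 did not pass, with a median of -0.010, and DESeq2 called 10 higher and 3 lower. Both Yap CKO libraries lay above both controls in 62 of the 200 and below in 49, and 33 had an unadjusted p under 0.05 in limma. The 5 that rose, named after their values were seen, were Dpep2 (2.25 ± 0.33), Tmem62 (2.11 ± 0.18), Gm42715 (1.00 ± 0.17), Taf1d and Alkbh1, a demethylase of nucleic acids that went from 1032 and 1006 to 1453 and 1495 (0.53 ± 0.09). Gm38393 fell from 355 and 248 to 17.3 and 35.4 (-3.53 ± 0.37). Gm42715 and Alkbh1 lost the call with the replicate block, and no call is read from fits that leave out a knockout library. Over all alternatives run Gm38393 stayed between -4.02 and -3.03 and Dpep2 between 1.87 and 2.52. Of the 20 coding hosts listed by name none passed in limma (1 at an unadjusted p under 0.05) or edgeR, and DESeq2 called 1 higher, Eif4a2. Eif4a2, a translation initiation helicase that begins with a TOP tract, stood at 0.57 (limma, adjusted p = 0.0591), and Chd8 at 0.21 (limma, adjusted p = 0.335).

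The machinery that makes and uses snoRNAs held no call in limma, edgeR or DESeq2. None of the 8 core proteins of the snoRNA particles passed in limma, edgeR or DESeq2 (2 in limma at an unadjusted p under 0.05), with a median of 0.10. Fbl, which encodes fibrillarin, the methylase of C/D particles, stood at 183 and 153 against 255 and 246 (0.58 ± 0.16, limma, adjusted p = 0.132). Nop10, an H/ACA core protein, was at -0.25 (limma, adjusted p = 0.223). None of 12 assembly and processing genes passed in limma, edgeR or DESeq2 either (0 in limma at an unadjusted p under 0.05, median 0.093). The nearest were Znhit6 (0.26, limma, adjusted p = 0.324) and the cap methylase gene Tgs1 (0.22, limma, adjusted p = 0.327).

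Ribosome synthesis genes held 1 call in limma. Of 22 genes for RNA polymerase I and ribosome biogenesis 1 passed in limma, as higher (Taf1d), and 21 did not, while DESeq2 called 2 (Gnl3 added), with a median of 0.084 and 19 above 0. All genes tested had a median of -0.005. Under equal library totals it was 0.057, a shift of scale that moves the genes of this list in the same way. Of the 6 MYC family genes 1 fell and 5 did not pass in limma, and DESeq2 called 2 lower (Mga added). Mycn, which drives growth of the distal lung epithelium, fell from 948 and 751 to 359 and 345 (-1.26 ± 0.14, limma, adjusted p = 0.0146; -1.43 to -1.09 over the alternatives).

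Genes of decay, translation and stress held no call in limma or edgeR, and 5 in DESeq2. Of 16 nonsense-mediated decay factors none passed in limma (4 at an unadjusted p under 0.05), with a median of 0.028, and DESeq2 called 2 higher. These 2 were the paralogs Upf3a, at 476 and 455 against 696 and 658 (0.54 ± 0.11, limma, adjusted p = 0.0656), and Upf3b (0.54, limma, adjusted p = 0.125). Of 20 other TOP genes none passed in limma or edgeR (2 at an unadjusted p under 0.05 in limma, median -0.019). DESeq2 called 2 of them higher, Eif4a2, named above, and Hnrnpa1 (0.36, limma, adjusted p = 0.112). Of 11 tested genes of the ATF4 stress response, in which several host genes are known to accumulate, none passed in limma or edgeR (2 at an unadjusted p under 0.05 in limma), and DESeq2 called 1 lower, Psat1. Their median was -0.17, with Psat1 at -0.45 (limma, adjusted p = 0.119) and Asns at -0.38 (limma, adjusted p = 0.127). Of 12 p53 targets none passed in limma, edgeR or DESeq2 (4 in limma at an unadjusted p under 0.05, median 0.18), with Phlda3 at -0.36 (limma, adjusted p = 0.176) and Mdm2 at 0.34 (limma, adjusted p = 0.184).

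**Figure D4:**
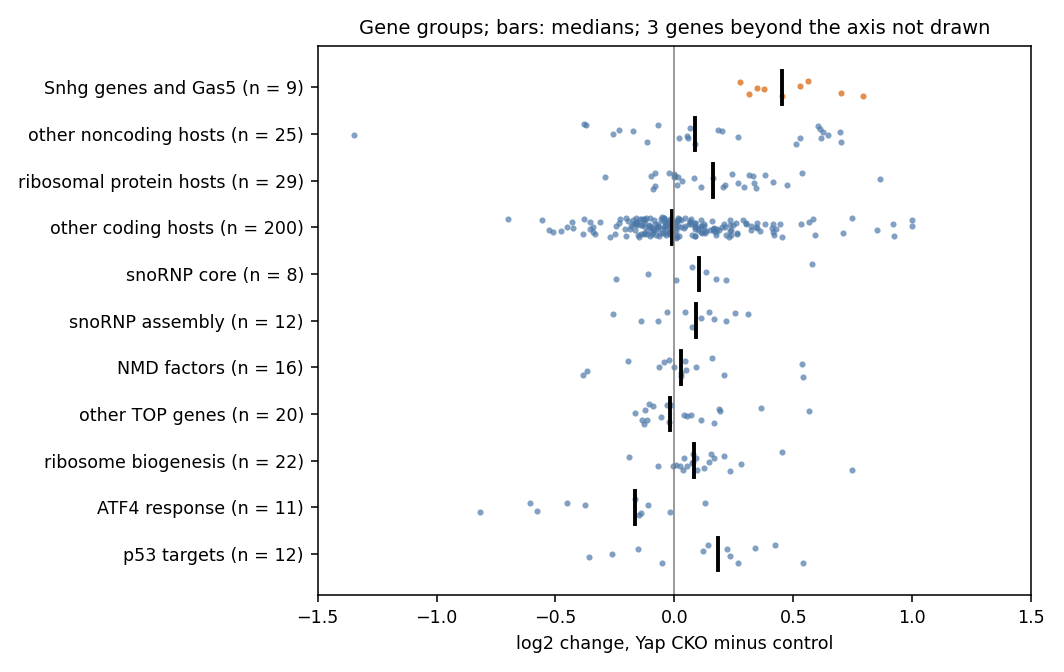
Difference of log2 means, knockouts less controls, of each tested gene in the Snhg set (orange) and in other groups (blue), with a black bar at each median. 3 genes lie beyond the axis and are not drawn. The Snhg set centers on 0.45 and the 200 other coding hosts on -0.010.

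Some genes that are no snoRNA hosts of the set followed the same profile across the 4 libraries. Likeness was the Euclidean distance to the median centered log2 profile of the 9, over 4 libraries, searched among 13716 genes whose mean reached 100. The nearest were Gm37422 (0.024), the imprinted noncoding gene Mirg (0.027), Tma16 (0.029), the lysosomal channel gene Mcoln1 (0.029) and the septin gene Sept2 (0.031). Mirg stood at 803 and 774 in controls against 1069 and 1118. Of the set itself Snhg3 (0.091), Snhg15 (0.10), Snhg12 (0.10) and Snhg6 (0.10) lay closest to the profile, and Gas5 (0.35) lay farthest. The profile includes the contrast that chose the set, and 4 libraries give it few points.

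**Figure D5:**
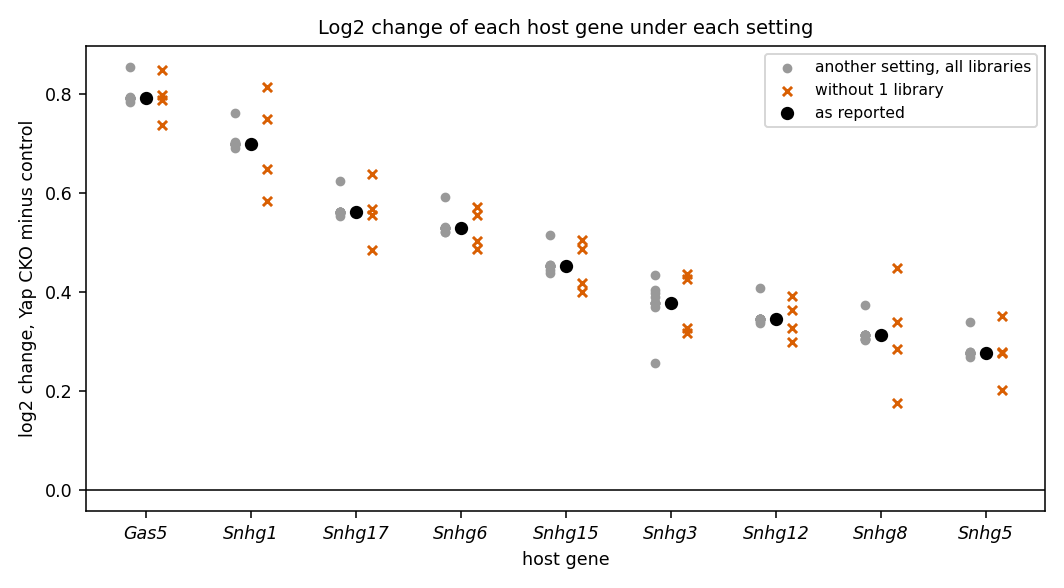
Log2 change of each host gene as reported (black), under other settings with all libraries (grey) and without 1 library (orange crosses). All 143 alternative values lie above 0, from 0.18 for Snhg8 without control 2 to 0.85 for Gas5 under equal library totals. Leaving out 1 library could not reverse a sign, as both Yap CKO libraries exceed both controls for each gene.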

How the data were processed

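RNA from total lung was sequenced by the authors in 4 libraries. The deposited values are a non-negative signal, counts per Ensembl gene that the authors had divided by 1 factor per library. Per the submitters' processing notes, the build mm10 and the tools edgeR 3.18.1, DESeq 1.16.0, Bowtie2 2.2.9 and featureCounts 1.5.0-p1 were used, with no role given. Annotation release and strand setting are not given in the sources used here. All values (100%) lay within 0.001 of a whole read, so reads were recovered.

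Columns were matched to samples by library name. After a pseudocount of 1 and a log2 transform, the 19472 genes whose mean normalized count reached 10 were tested with limma 3.58.1 (R 4.3.3, intensity trend, two-sided, Benjamini-Hochberg over all genes). The fit had 2 residual and 4.5 prior degrees of freedom. Alternatives were other pseudocounts, filters and scalings, no trend, a replicate block, edgeR 4.0.16 and DESeq2 1.42.0 on recovered reads, and leaving out each library. The code was tested on simulated data. Symbols, exons and snoRNA transcripts came from GENCODE M21, which matched 52403 identifiers, and promoters from RefSeq. Snhg16 was found through a RefSeq synonym. Alignments used Biopython 1.88.

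The members and gene lists were chosen with earlier results of these data known. The text names all members, Yap1, and from each list at most 4 called genes or, with none called, the 2 with the smallest p. Uncalled hosts by symbol, called hosts by position, called marker genes and genes called by DESeq2 alone are named beyond this rule, after their values were seen. The text also names every gene beside or inside a member with a mean of at least 10, and the 5 nearest profiles. The lists cover other hosts, snoRNA proteins, decay, TOP, ribosome, MYC, ATF4 and p53 genes and cell markers. Besides the sums given for heart, neuron and gut, summed levels (controls 1 and 2, then Yap CKO 1 and 2) were 18478, 17304, 16558 and 17582 for epithelium and 99697, 111773, 95173 and 85847 for mesenchyme. They were 14699, 16059, 15329 and 14989 for endothelium, 113236, 156024, 87018 and 114044 for erythroid and 1730, 2278, 1733 and 1759 for leukocyte genes. 1 of 8 epithelium and 1 of 8 mesenchyme genes rose in limma, as did 2 of 3 gut genes tested, and no gene of the other marker lists passed in limma or edgeR (DESeq2 called 1 erythroid and 3 sex-linked genes lower). Ddx3y of the Y chromosome was at 1726 in control 1 and at most 16.4 elsewhere. Hosts by position were added after the data were seen. Counting error alone bounds a count of 0 at 3 reads.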

Additional observations from a re-analysis of the deposited data

How the results depend on the processing

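Every host gene kept a positive log2 change in each of the 16 alternatives that tested it, 143 values in all. Both Yap CKO libraries lay above both controls for each gene, so leaving out 1 library could not reverse a sign. Without the filter or the trend, under TMM scaling and with either replicate block, the log2 changes equalled those of the main fit. The signs therefore say little about stability. Of the 143 values 127 kept the side of the threshold, a count that includes genes not called in either fit. The call was lost in 13, all of Gas5, Snhg1 or Snhg17, and gained in 3, all of Snhg6. Gas5 and Snhg1 were each called in 12 of the 16 alternatives and Snhg17 in 11. The number of host genes called higher, 3 of 9, was 0 without the filter on low values and 0 without the intensity trend, where 56 and 6 genes were called in all against 454. It ranged from 0 to 4 when 1 library was left out, with 0 without Yap CKO 1, 0 without Yap CKO 2, and 4 without control 1 or control 2. The number of genes called ranged from 2 to 2459 in those fits (2459 without control 1, 2458 without control 2, 2 without Yap CKO 1, 7 without Yap CKO 2), in which the lone library of a group is assumed to vary like the others. DESeq2 called 1037 genes and 4 host genes, with Snhg6 added. No host gene was called lower in any of them. The cause of these differences was not tested. With the replicate block 2 host genes and 342 genes passed, and Snhg17 lost the call. Same-numbered libraries deviated with a correlation of -0.36, so crossed numbers were tried as an alternative chosen after seeing the data, and 972 genes and 3 host genes passed. TMM scaling returned the deposited scale. Under equal totals 62.0% of calls were rises, against 50.9%, and the median of the host genes was 0.51. Differences that changed sign when 1 library was left out ranged from -0.58 to 0.13 for Yap1 (0.014 without Yap CKO 1), -0.15 to 0.54 for Mcmdc2 (-0.084 without control 1), -0.27 to 0.048 for Slc3a2, -0.60 to 0.13 for Snhg14 and -0.50 to 0.16 for Dancr. With 2 libraries a group, small changes such as that of Snhg3, at 57 reads, were not detectable.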
